A study of Homo sapiens with 18 samples.

Results

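Heterogeneous nuclear ribonucleoproteins (hnRNPs) are RNA-binding proteins that coat nascent transcripts and help decide which splice sites are joined. Many of their own pre-mRNAs are alternatively spliced, and several carry exons or 3′ UTR introns that mark the transcript for nonsense-mediated decay (NMD), the pathway that removes transcripts with a premature stop. SNRPD3 is one of the Sm proteins that form the ring around the small nuclear RNAs of the spliceosome, and MYCN is a transcription factor whose gene is amplified in many high-risk neuroblastomas. The introns described here are those of 10 hnRNP genes, HNRNPA1, HNRNPA2B1, HNRNPC, HNRNPD, HNRNPDL, HNRNPH1, HNRNPH3, HNRNPK, HNRNPM and HNRNPR. An intron was taken as a member when at least one of its splice sites lay on an exon boundary that GENCODE annotates for one of these genes, and 98 of the 233650 introns of the series qualified, in 31 clusters, from 5 in HNRNPA1 to 17 in HNRNPK.

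All libraries came from SHEP.tet21n, 1 neuroblastoma line in which doxycycline (Dox) switches off a MYCN transgene. Cells given 2 µg/mL Dox (MYCN-) or the vehicle DMSO (MYCN+) were transfected with siControl (SNRPD3+) or with SNRPD3 siRNA #1 or #2 (SNRPD3-), and MYCN-/SNRPD3+ is called wildtype. Each of the 6 groups had 3 libraries, 18 in all, which the study describes as independent biological replicates. MYCN status and exposure to Dox cannot be told apart in this design, and neither the MYCN nor the SNRPD3 transcript was looked at.

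The measurement was the percent spliced in (PSI) of an intron, here the share in percent of the reads across a cluster of overlapping introns that removed the given intron. PSI values of a cluster sum to 100%, so introns of the same cluster are not independent, and PSI measures neither gene expression nor intron retention. The read counts behind each PSI were not given, so the depth is unknown and the spread between replicates is the only error available. Where all libraries of a group are said to lie above or below those of another, how often that occurs in the whole series was not counted. Of the 98 introns, 74 belonged to coding transcripts, 8 occurred only in NMD transcripts, 5 in no coding transcript but in retained-intron transcripts or transcripts with no defined coding sequence (3 of them in NMD transcripts as well), and 11 were not annotated. The test covered 85 of them, because 12 had a mean PSI below 1% and 1 above 99%. The hnRNP introns were measured more tightly than most: the median within-group SD of PSI was 1.01 percentage points over these 85 introns and 3.11 over all 152722 tested introns. Replicates correlated at 0.845 to 0.993 across the 85 introns and at 0.847 to 0.871 across all tested introns. One HNRNPA2B1 cluster far downstream of the canonical gene (chr7:26171541-26173594) held as few as 8 different values among the 18 libraries, with a within-group SD of up to 50.1 points, and no reading was taken from it.

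The sequences at the competing splice sites of HNRNPA2B1 and HNRNPH1, the genes with called introns, are shown first (hg38, minus strand, 5′ to 3′). For HNRNPA2B1 the donor of exon 10 can be joined to 3 acceptors in the 3′ UTR, of which the second opens an exon found in NMD transcripts, called the NMD exon here. Each acceptor is given as its last 20 intron bases and first 3 exon bases with the AG in capitals, and the donor as 3 exon and 6 intron bases with the GT in capitals.
Exon 10 donor (chr7:26192489-26192497): tggGTaagt
Exon 11 acceptor (chr7:26192336-26192358): ctttacttctgttgaaacAGgct
NMD exon acceptor (chr7:26191126-26191148): tttccctgccggaattttAGcat
Distal acceptor (chr7:26190458-26190480): ctttttttttcctttggcAGgaa
Of the 20 intron bases, 12 were pyrimidines before the exon 11 acceptor, 13 before the NMD exon and 16 before the distal acceptor, against a median of 14 over 103240 annotated introns of the series. The donor of exon 10 matched 7 of the 9 bases most common among those introns (cagGTaagt), and 43.9% of them matched at least as many.

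For HNRNPH1 the competing donors lie on exons 10 and 11, which are near copies of each other. The last 30 bases of the extended exon 10 and of exon 11 are given in lower case, with capitals at the bases that differ between them, followed by both donors with the GT in capitals.
Extended exon 10, last bases (chr5:179617021-179617050): gtagccaaatgCtAggaggcatgggTttgt
Exon 11, last bases (chr5:179616869-179616898): gtagccaaatgAtGggaggcatgggCttgt
Extended exon 10 donor (chr5:179617015-179617023): tgtGTaaat
Exon 11 donor (chr5:179616863-179616871): tgtGTaaat
The donor windows were the same 9 bases, with 5 matches to the commonest bases, and 97.9% of the annotated introns matched at least as many. Of the 30 bases shown, 27 were identical, and the whole 90-nt extended exon 10 matched exon 11 at 86 of 90 positions without gaps. Reads that cross only a few bases of these exons could be placed on either donor, and how they were shared out was not tested.

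Across the 85 introns, limma (all 6 groups in 1 fit, both siRNAs averaged, Benjamini-Hochberg adjustment over all tested introns, adjusted p under 0.05) called introns in only 2 of the 7 comparisons. MYCN expressed against repressed over all siRNAs gave 3 calls, all in HNRNPA2B1, where 1.23% of all tested introns were called. MYCN+/SNRPD3- against wildtype gave 2 calls, in HNRNPA2B1 and HNRNPH1, against 0.559% of all introns. Both of these calls rest on averaging the siRNAs: against wildtype, siRNA #1 alone and siRNA #2 alone each gave 0 hnRNP calls (limma, 17 and 13 introns at an unadjusted p under 0.05). The last intron of HNRNPA2B1 differed by 3.2 and 3.37 points with siRNA #1 and #2 (adjusted p = 0.102 and 0.118, limma), and the HNRNPH1 intron by 9.17 and 10.3 points (adjusted p = 0.111 and 0.115). No hnRNP intron was called for MYCN alone (0.0543% of all introns called), for knockdown with MYCN repressed (0.0138%), for knockdown with MYCN expressed (0.0196%), for knockdown over both MYCN states (0.0242%) or for the interaction (0.0177%).

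At an unadjusted limma p under 0.05 the picture was less sparse, and it differed between comparisons. Knockdown over both MYCN states had 21 of 85 hnRNP introns below that value (24.7%), against 7.8% of all tested introns. Knockdown with MYCN expressed had 14 (16.5%, against 7.06%), and knockdown with MYCN repressed had 4 (4.71%, against 4.69%). The remaining comparisons had 17 for MYCN over all siRNAs (20%, against 11.7%), 16 for MYCN+/SNRPD3- against wildtype (18.8%, against 11%), 5 for MYCN alone (5.88%, against 6.19%) and 1 for the interaction (1.18%, against 3.98%). These unadjusted counts are descriptions over introns of which those in a cluster move together, and the part played in them by the smaller replicate spread of the hnRNP introns was not tested. Among 235 tested introns of other hnRNP and related genes, 8 were called for MYCN over all siRNAs (in HNRNPF, HNRNPUL1, PCBP2, PCBP3, PCBP4 and CIRBP), 3 for MYCN+/SNRPD3- against wildtype (in PCBP2 and TAF15) and 0 in the other comparisons, in which 7 to 21 of them had an unadjusted limma p under 0.05.

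HNRNPA2B1, on chromosome 7, encodes the A2 and B1 proteins, which bind UAG-containing RNA in splicing and RNA transport. Its stop codon lies in exon 10, and its last intron, chr7:26192338-26192495, joins exon 10 to exon 11 within the 3′ UTR. The PSI of this intron was 88.4%, 86.8% and 87.7% in wildtype, 88.4%, 86.9% and 87.5% in MYCN-/SNRPD3- #1, and 87.7%, 87.0% and 88.0% in MYCN-/SNRPD3- #2. With MYCN expressed it was 91.2%, 90.8% and 91.5% with siControl, 90.8%, 91.2% and 90.4% with siRNA #1, and 91.1%, 91.1% and 90.7% with siRNA #2. Every MYCN+ library was above every MYCN- library, and the knockdown groups sat at the level of their controls. The difference between MYCN states was 3.4 points, or 0.48 ± 0.06 (SE) on the log2 odds scale (adjusted p = 0.00194, limma), and it was 3.28 points between MYCN+/SNRPD3- and wildtype (adjusted p = 0.0457). Knockdown over both states moved the same intron by -0.16 points (-0.02 ± 0.06 log2 odds, adjusted p = 0.988).

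Both introns around the NMD exon of HNRNPA2B1 (chr7:26190993-26191128) had a lower PSI when MYCN was expressed. The intron from exon 10 into this exon went from 3.71% ± 0.416 (SD, n = 3) in wildtype to 2.57% ± 0.243 in MYCN+/SNRPD3+, and differed over all siRNAs by -0.45 ± 0.08 log2 odds (adjusted p = 0.0214, limma). The intron from this exon to the distal acceptor was 5.13% ± 0.467 in wildtype and 3.62% ± 0.425 in MYCN+/SNRPD3+, and differed by -0.48 ± 0.10 log2 odds over all siRNAs (adjusted p = 0.0446). Both were lowest in the MYCN+/SNRPD3- groups, at 2.07% ± 0.318 and 2.16% ± 0.316 for the first and 2.73% ± 0.6 and 2.73% ± 0.426 for the second with siRNA #1 and #2. The intron that skips the NMD exon, from exon 10 to the distal acceptor, is not annotated as an intron although both of its splice sites are. It stood at 3.53% ± 0.185 in wildtype and 2.64% ± 0.388 in MYCN+/SNRPD3+, and after knockdown at 4.95% ± 1.11 and 5.0% ± 0.687 with MYCN repressed and 4.38% ± 1.3 and 4.13% ± 0.927 with MYCN expressed. Its change with knockdown over both states, 0.47 ± 0.13 log2 odds, did not pass the test (adjusted p = 0.306, limma), and in each knockdown group replicate 3 was the highest.

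**Figure D1:**
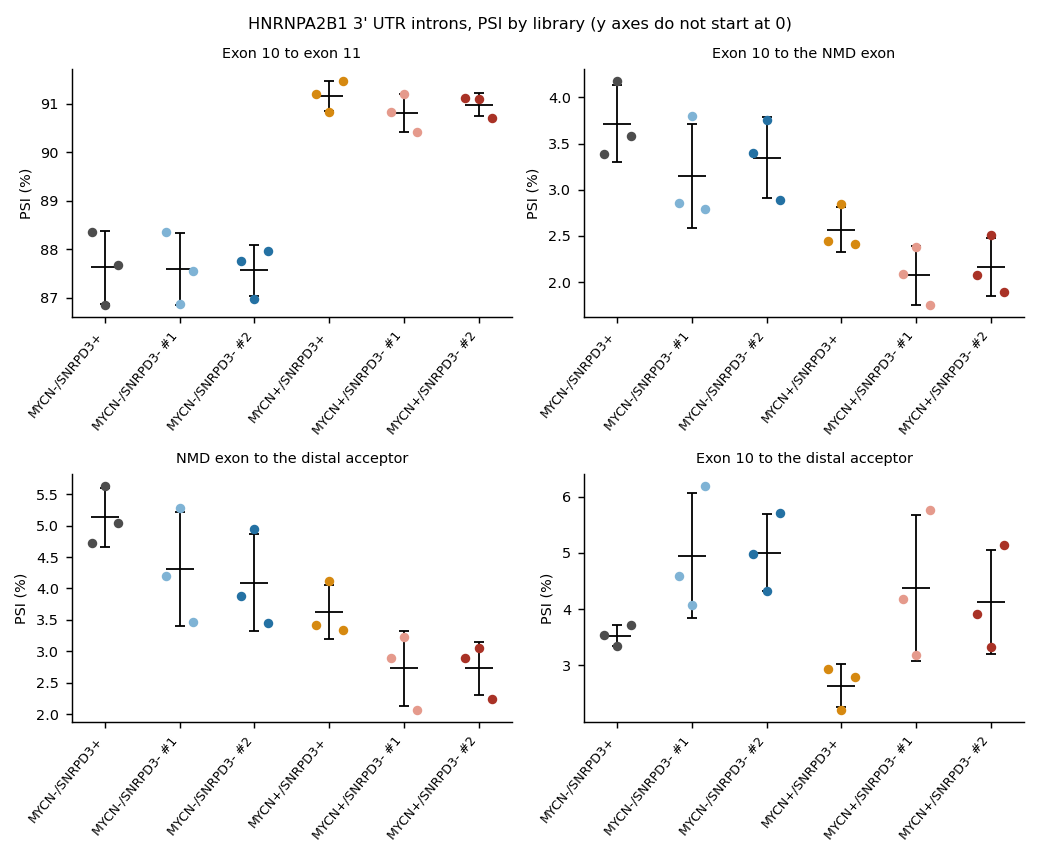
PSI in percent (y axis, not starting at 0) of 4 HNRNPA2B1 introns in the 3′ UTR in each of the 18 libraries (points) of the 6 groups (x axis), with the group mean and SD (n = 3) as lines. For the intron from exon 10 to exon 11 the MYCN+ libraries sit between 90.4% and 91.5% and the MYCN- libraries between 86.8% and 88.4%.

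The call for the last HNRNPA2B1 intron between MYCN states held when any 1 library was left out (adjusted p from 0.00402 to 0.00598, limma), while its call against wildtype was lost in each of those fits (adjusted p from 0.0524 to 0.186). The NMD exon to distal acceptor intron kept its call in 3 of 18 such fits, with an adjusted p of up to 0.0917.

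HNRNPH1, on chromosome 5, encodes a protein that binds runs of G in RNA. In the cluster entering exon 12, the canonical intron from exon 11 (chr5:179616218-179616869) competed with an intron from a donor 30 nt downstream of exon 10 (chr5:179616218-179617021). The second intron joins an exon 10 of 90 nt instead of 60 to exon 12 and leaves out the 90-nt exon 11, a net loss of 60 nt that keeps the reading frame, and GENCODE lists it in coding and NMD transcripts. Its PSI was 8.44%, 10.7% and 9.82% in wildtype, 11.6%, 11.5% and 17.5% in MYCN-/SNRPD3- #1, and 12.5%, 12.7% and 15.8% in MYCN-/SNRPD3- #2. It was 10.8%, 11.5% and 12% in MYCN+/SNRPD3+, 16.5%, 15.8% and 24.1% in MYCN+/SNRPD3- #1, and 16.6%, 18.1% and 25.2% in MYCN+/SNRPD3- #2. All MYCN+/SNRPD3- libraries were above all wildtype libraries, and within each of the 4 knockdown groups the third replicate was the highest. MYCN+/SNRPD3- exceeded wildtype by 9.76 points (1.08 ± 0.22 log2 odds, adjusted p = 0.046, limma).

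The parts of that HNRNPH1 difference were each smaller and not called. Knockdown over both MYCN states gave a difference of 5.95 points (0.67 ± 0.15 log2 odds, adjusted p = 0.227, limma), with 3.94 points when MYCN was repressed and 7.95 when it was expressed. MYCN over all siRNAs differed by 4.48 points (adjusted p = 0.163). The canonical intron from exon 11 moved the other way, from 81.8% ± 1.23 (SD, n = 3) in wildtype to 74.5% ± 3.3 and 73.1% ± 3.68 in MYCN+/SNRPD3- #1 and #2, and every knockdown library was below every siControl library for it (knockdown over both states -5.6 points, -0.46 ± 0.11 log2 odds, adjusted p = 0.235). How often such a separation occurs among all tested introns was not counted. Another intron of the cluster, from a donor that shortens exon 11 and occurs only in an NMD transcript, lay at 8.58% ± 0.954 in wildtype and 6.63% ± 1.37 and 6.88% ± 1.44 in the MYCN+/SNRPD3- groups. The call against wildtype for the exon 10 to exon 12 intron was kept in 2 of the 18 fits that left out 1 library, with an adjusted p of up to 0.171.

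**Figure D2:**
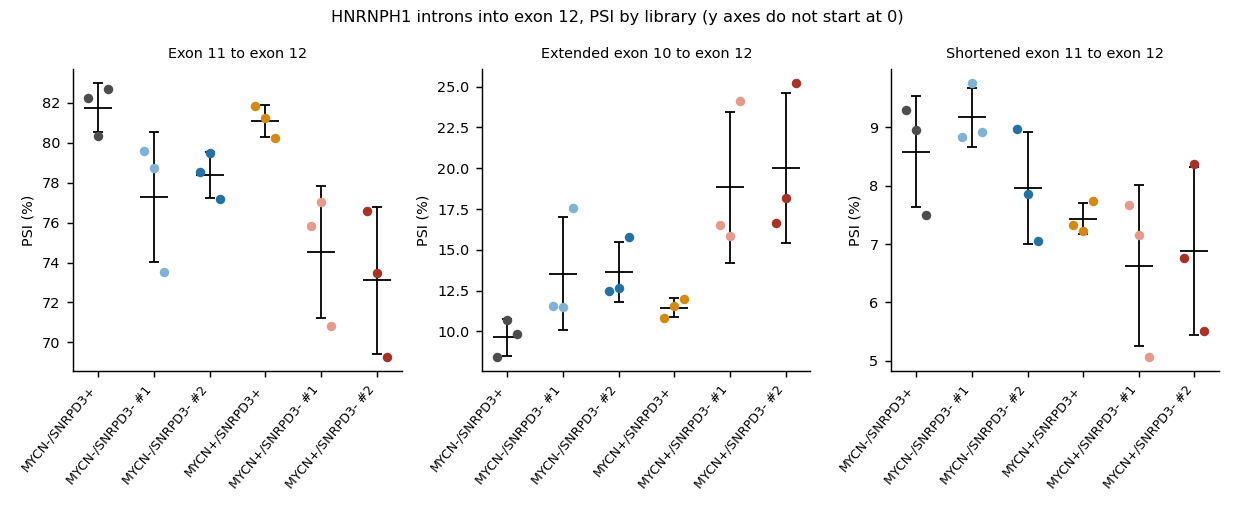
PSI in percent (y axis, not starting at 0) of the 3 HNRNPH1 introns that end at exon 12, in each library (points) of the 6 groups (x axis), with group mean and SD (n = 3) as lines. The intron from the extended exon 10 runs from 8.44% in a wildtype library to 25.2% in a MYCN+/SNRPD3- #2 library, while the intron from exon 11 runs the other way.

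Cassette exons were then examined on their own, as the share of transcripts that include the exon, computed from the mean PSI of both flanking introns and the PSI of the skipping intron, all annotated in the same gene. Of 19 such exons 18 had a mean inclusion between 1% and 99%, and 2 pairs of them (in HNRNPC and HNRNPR) overlap and share introns. Exons 5 and 6 of HNRNPR also share the intron between them, so the 18 exons are not independent. After SNRPD3 knockdown, over both MYCN states, 16 of the 18 exons had a lower mean inclusion and 2 a higher one, with a median difference of -1.6 points. Over 18396 annotated cassette exons of the series measured in the same way, 72% were lower and the median difference was -0.866 points. By a two-sided exact permutation test that exchanged libraries within each MYCN state, 10 hnRNP exons were lower at p under 0.05 (55.6%, against 14.5% of all cassette exons) and 1 was higher (5.56%, against 1.44%). These p-values are not adjusted, and the median within-group SD was 1.44 points for the hnRNP exons and 3.47 for all cassette exons.

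MYCN did not move the hnRNP cassettes in one direction. With MYCN expressed 9 exons had a higher and 9 a lower inclusion, and the median difference was -0.03 points against -0.573 over all cassette exons, of which 63.3% were lower. At an exact permutation p under 0.05, exchanging libraries within each siRNA, 5 hnRNP exons were lower (27.8%, against 17.6% of all cassette exons) and 3 were higher (16.7%, against 5.15%).

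**Figure D3:**
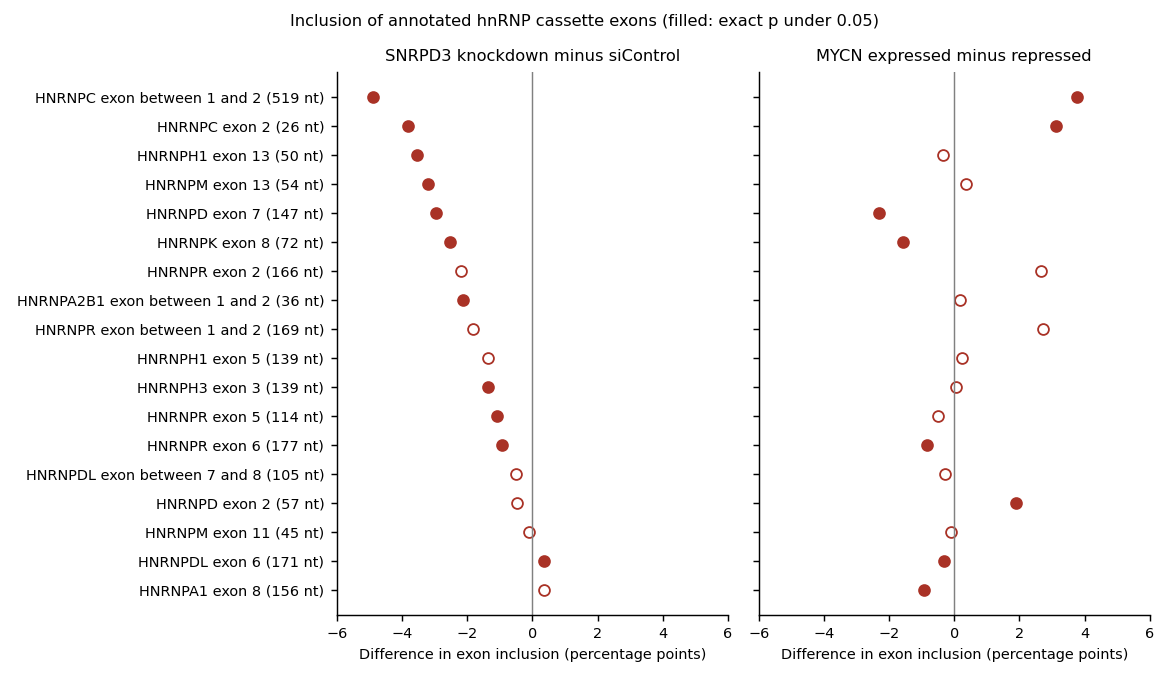
Difference in exon inclusion in percentage points (x axis) for the 18 measured hnRNP cassette exons (y axis, with length), for SNRPD3 knockdown against siControl over both MYCN states (left) and MYCN expressed against repressed over all siRNAs (right). Filled points have an exact permutation p under 0.05, and 16 of the 18 points on the left lie below 0 while those on the right fall on both sides.

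Among the cassette exons, the largest differences after knockdown were in HNRNPC, on chromosome 14, whose protein binds uridine tracts and packages nascent RNA. Its 26-nt exon 2 (chr14:21263311-21263336) lies in the 5′ UTR. Inclusion of the exon was 77.3%, 76.7% and 80.8% in wildtype, 76.0%, 76.2% and 76.8% with siRNA #1 and 74.5%, 75.4% and 76.1% with siRNA #2. In MYCN+ cells it was 83.3%, 82.6% and 83.7% with siControl, 79.7%, 80.0% and 75.5% with siRNA #1, and 78.7%, 79.6% and 74.8% with siRNA #2. The MYCN+/SNRPD3+ libraries stood above all others, and both knockdown groups of each MYCN state had a lower mean than their control. The difference was -3.81 points for knockdown (exact permutation p = 0.000283) and 3.11 points for MYCN (exact permutation p = 0.005). A 519-nt form of the same exon gave -4.88 and 3.78 points, but measured by its own upstream intron alone these were -1.24 (exact permutation p = 0.0529) and 0.02 points (exact permutation p = 0.972).

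HNRNPC also has 2 donors at exon 4 that define the C1 and C2 proteins. The 39-nt coding segment that only C2 contains (chr14:21230958-21230996) is shown because its use sets the ratio of both proteins.
C2 segment: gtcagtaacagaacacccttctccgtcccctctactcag
The intron that keeps the segment held 45.8% ± 4.01 (SD, n = 3) in wildtype, 50.1% ± 5.71 and 48.4% ± 4.69 after knockdown, 47.4% ± 1.88 in MYCN+/SNRPD3+, and 52.7% ± 4.39 and 50.4% ± 3.26 after knockdown with MYCN expressed. Knockdown and siControl libraries overlapped, as did MYCN+ and MYCN- libraries. Neither knockdown (0.21 ± 0.13 log2 odds, adjusted p = 0.761, limma) nor MYCN (0.12 ± 0.12, adjusted p = 0.804) passed the test. In every group replicate 2 was the lowest library. Each knockdown library was above the siControl library with the same replicate number and MYCN state. The fit did not use the replicate number, and the labels give no shared source for it.

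HNRNPK, on chromosome 9, encodes a KH-domain protein that binds C-rich RNA, and 2 of its alternative regions are described here. Its 72-nt exon 8 (chr9:83973902-83973973) is shown because it was the hnRNP cassette whose knockdown and control libraries did not overlap. How often that occurs among all cassette exons of the series was not counted.
HNRNPK exon 8: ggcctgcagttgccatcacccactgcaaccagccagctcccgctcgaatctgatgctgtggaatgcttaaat
Inclusion was 90.8%, 90.5% and 90.1% in wildtype and 89.1%, 89.3% and 89.2% in MYCN+/SNRPD3+. It was 88.9%, 88.8% and 87.4% in MYCN-/SNRPD3- #1 and 88.4%, 88.9% and 86.7% in MYCN-/SNRPD3- #2. It was 87.1%, 87.9% and 84.0% in MYCN+/SNRPD3- #1 and 87.6%, 87.8% and 84.2% in MYCN+/SNRPD3- #2. Every knockdown library was below every siControl library. The differences were -2.53 points for knockdown (exact permutation p = 0.00128) and -1.58 points for MYCN (exact permutation p = 0.00825), and the skipping intron itself gave 0.31 ± 0.09 log2 odds for knockdown (adjusted p = 0.333, limma).

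The last exon of HNRNPK, exon 17, has 2 acceptors 60 nt apart, given here with the AG in capitals (hg38, minus strand).
Exon 17 outer acceptor (chr9:83969438-83969460): ttttttcttttcttttatAGtgt
Exon 17 inner acceptor (chr9:83969378-83969400): atattttttcttttttatAGtgt
The inner acceptor held 49.0%, 48.7% and 48.9% in wildtype and 48.7%, 48.4% and 46.6% in MYCN+/SNRPD3+. It held 45.1% ± 1.66 (SD, n = 3) and 45.7% ± 1.14 in the MYCN-/SNRPD3- groups and 42.3% ± 2.99 and 42.3% ± 2.82 in the MYCN+/SNRPD3- groups, all of whose libraries were below wildtype. Its change with knockdown, -4.57 points (-0.26 ± 0.08 log2 odds), had an adjusted p of 0.345 (limma) and was not called. The outer acceptor had 17 pyrimidines among its 20 intron bases and the inner one 15.

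HNRNPD, on chromosome 4, encodes AUF1, which binds AU-rich elements of unstable mRNAs, and its exons 2 and 7 define 4 protein isoforms. Exon 7 (147 nt, chr4:82356537-82356683) is printed because it was lower both after knockdown and with MYCN.
HNRNPD exon 7: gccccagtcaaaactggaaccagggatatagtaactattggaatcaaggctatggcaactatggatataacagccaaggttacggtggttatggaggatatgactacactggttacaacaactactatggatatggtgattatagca
Its inclusion was 36.2%, 33.8% and 39.8% in wildtype, 33.5%, 32.9% and 33.3% in MYCN-/SNRPD3- #1, and 34.4%, 33.9% and 35.6% in MYCN-/SNRPD3- #2. It was 34.1%, 34.6% and 35.4% in MYCN+/SNRPD3+, 30.8%, 30.4% and 28.8% in MYCN+/SNRPD3- #1, and 32.8%, 33.8% and 31.8% in MYCN+/SNRPD3- #2. The lowest values were those of siRNA #1 with MYCN expressed, and the groups overlapped. The differences were -2.98 points for knockdown (exact permutation p = 0.0017) and -2.3 points for MYCN (exact permutation p = 0.0035). Exon 2 (57 nt) differed by 1.89 points with MYCN (exact permutation p = 0.00775) and by -0.477 points with knockdown (exact permutation p = 0.42).

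HNRNPA2B1 has a 36-nt exon between exons 1 and 2 (chr7:26197831-26197866), which distinguishes the B1 protein from the shorter A2.
B1 exon: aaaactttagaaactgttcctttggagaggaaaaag
It was included at 12.9% ± 0.742 (SD, n = 3) in wildtype and 13.7% ± 0.898 in MYCN+/SNRPD3+. After knockdown inclusion was 10.8% ± 1.05 and 11.7% ± 1.63 with MYCN repressed, and 10.8% ± 2.1 and 11.5% ± 1.73 with MYCN expressed. All 4 knockdown groups had a lower mean than their control, by 1.16 to 2.96 points, although single libraries overlapped, and the difference over both MYCN states was -2.13 points (exact permutation p = 0.00737).

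The 5 other cassettes that were lower after knockdown were in HNRNPH1, HNRNPH3, HNRNPM and HNRNPR. HNRNPH1 exon 13 (50 nt) was included at 84.9% ± 1.14 (SD, n = 3) in wildtype and 87.0% ± 2.5 in MYCN+/SNRPD3+, and at 81.5% ± 5.27 and 81.7% ± 4.19 in the MYCN+/SNRPD3- groups (knockdown -3.53 points, exact permutation p = 0.0286). HNRNPM exon 13 (54 nt), in a gene whose protein binds GU-rich RNA, differed by -3.2 points (exact permutation p = 0.0257). HNRNPH3 exon 3 (139 nt, not a multiple of 3) differed by -1.36 points from 92.9% ± 0.0582 in wildtype (exact permutation p = 0.0166). In HNRNPR, a paralogue of SYNCRIP, exon 6 (177 nt) differed by -0.924 points (exact permutation p = 0.00269) and exon 5 (114 nt) by -1.08 points (exact permutation p = 0.0207). Exon 6 of HNRNPR was also lower with MYCN, by -0.85 points (exact permutation p = 0.001).

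Without 1 siControl library some of these calls were lost: HNRNPH1 exon 13 without MYCN+/SNRPD3+ replicate 1 (exact permutation p = 0.0595), HNRNPM exon 13 without MYCN+/SNRPD3+ replicate 1 (exact permutation p = 0.0778) or wildtype replicate 3 (exact permutation p = 0.0872), and HNRNPR exon 5 on leaving out each of the MYCN+/SNRPD3+ libraries in turn (exact permutation p from 0.0527 to 0.0604). Measured by its upstream intron alone, HNRNPM exon 13 differed by -2.46 points (exact permutation p = 0.0804). By its downstream intron alone, HNRNPH1 exon 13 differed by -3.21 points (exact permutation p = 0.0543). In all 10 exons that were lower after knockdown, the third replicate was the lowest library of both MYCN+/SNRPD3- groups. When both of those libraries were left out, a choice made after seeing the data, the same 10 exons were lower, with exact permutation p-values of up to 0.0435.

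**Figure D4:**
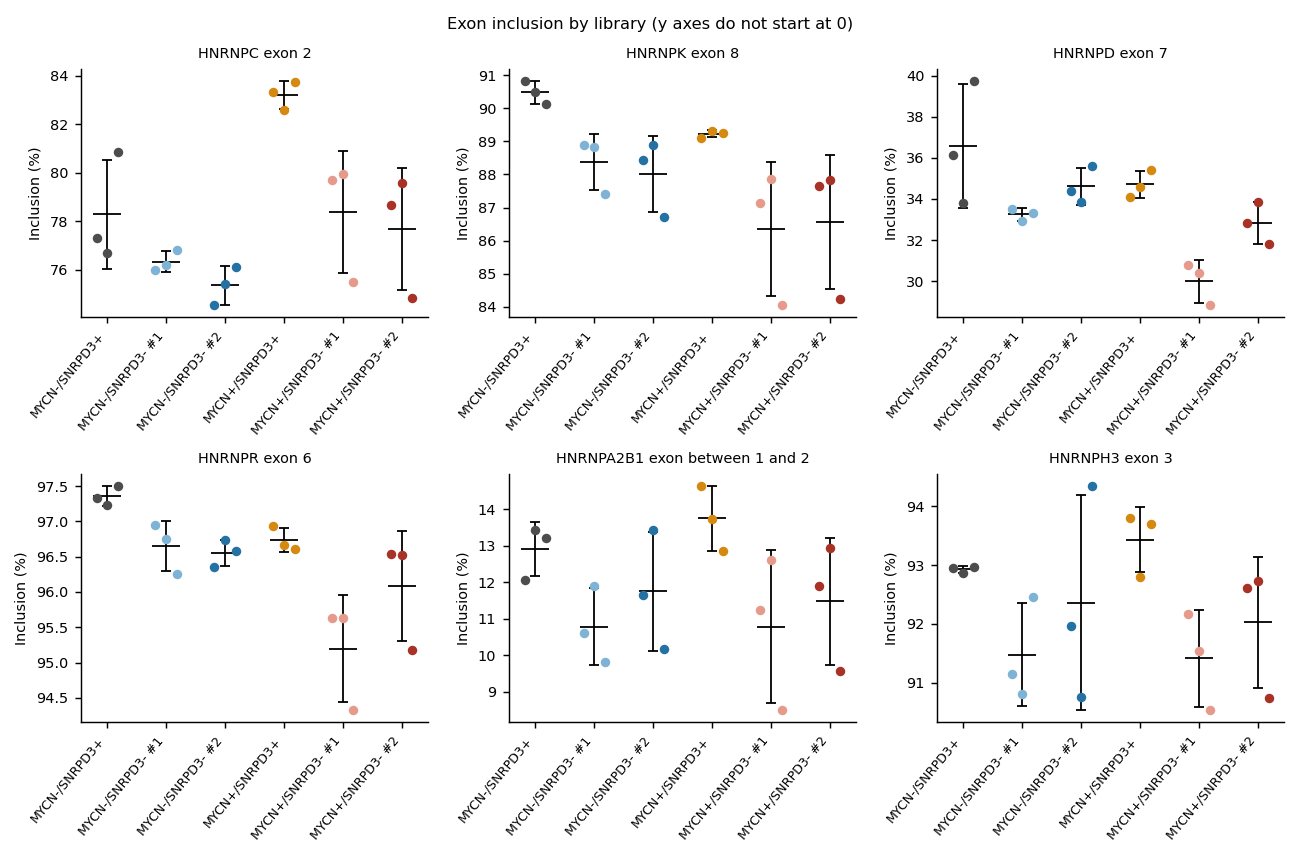
Exon inclusion in percent (y axis, not starting at 0) in each library (points) of the 6 groups (x axis), with group mean and SD (n = 3) as lines, for the 6 hnRNP cassette exons with the smallest exact permutation p for knockdown, 1 form per exon. In HNRNPK exon 8 the knockdown libraries, at 84.0% to 88.9%, are all below the siControl libraries, at 89.1% to 90.8%, and in each panel the third replicate of both MYCN+/SNRPD3- groups is the lowest of its group.

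The remaining cassettes were not lower after knockdown at this threshold. HNRNPA1, whose protein represses splicing at UAGG sites, has a 156-nt exon 8 that makes the longer A1-B isoform. It was included at 10.2% ± 0.369 (SD, n = 3) in wildtype and 9.42% ± 0.342 in MYCN+/SNRPD3+, and differed by 0.367 points with knockdown (exact permutation p = 0.303) and by -0.927 points with MYCN (exact permutation p = 0.00125). That knockdown value averages siRNAs that moved HNRNPA1 exon 8 in opposite directions. With MYCN repressed and expressed, siRNA #1 differed from its control by -0.267 and -0.255 points, and siRNA #2 by 1.24 and 0.754 points. HNRNPDL, a gene related to HNRNPD, has a 105-nt exon between exons 7 and 8 that GENCODE places in NMD transcripts, included at 5.27% ± 0.907 in wildtype and with no detectable difference after knockdown (-0.517 points, exact permutation p = 0.46). HNRNPDL exon 6 (171 nt), included at 97.8% ± 0.0283 in wildtype, was the single cassette that was higher after knockdown, by 0.345 points (exact permutation p = 0.0479), a call kept in 5 of the 18 tests that left out 1 library. The same HNRNPDL exon was lower with MYCN, by -0.317 points (exact permutation p = 0.0297), a call kept in 12 of those 18 tests, with p up to 0.0862 in the others. HNRNPR exon 2 was included at 50.3% ± 6.28 in wildtype and differed by -2.19 points (exact permutation p = 0.235). HNRNPH1 exon 5 differed by -1.37 points (exact permutation p = 0.0563) and HNRNPM exon 11 by -0.0978 points (exact permutation p = 0.505).

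In HNRNPH3, a relative of HNRNPH1, the donor of exon 4 (chr10:68338685-68338693, plus strand) competes with a donor 45 nt upstream (chr10:68338640-68338648). They are printed with the GT in capitals because both are used at similar levels.
Exon 4 donor: gtgGTatgt
Exon 4 inner donor: gaaGTatgt
Both matched 6 of the 9 commonest bases. The inner donor held 43.0%, 36.0% and 37.8% in wildtype, 42.5% ± 2.73 (SD, n = 3) in MYCN+/SNRPD3+, 39.8% ± 2.65 and 43.6% ± 1.89 in the MYCN-/SNRPD3- groups, and 45.2% ± 2.24 and 47.8% ± 1.99 in the MYCN+/SNRPD3- groups. All MYCN+/SNRPD3- libraries were above wildtype for HNRNPH3, by 7.59 points on average (0.44 ± 0.13 log2 odds, adjusted p = 0.159, limma), and MYCN over all siRNAs gave 4.38 points (adjusted p = 0.213).

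In HNRNPR, acceptors 9 nt apart compete at exon 8, and the intron with the inner acceptor (chr1:23318688-23321528) held 88.4% ± 0.978 (SD, n = 3) in wildtype and 91.6% ± 0.748 and 91.0% ± 0.637 in the MYCN+/SNRPD3- groups. The difference, 2.88 points, was not called (0.42 ± 0.12 log2 odds, adjusted p = 0.156, limma).

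Of the other introns named by their p-value, none was called; most are the skipping introns of the cassettes already described. In HNRNPC the intron that skips exon 2 held 11.9% ± 1.35 (SD, n = 3) in wildtype and 8.98% ± 0.34 in MYCN+/SNRPD3+, and differed by 0.31 ± 0.09 log2 odds with knockdown (adjusted p = 0.318, limma). In HNRNPD the intron that skips exon 7 held 46.5% ± 3.2 in wildtype and 53.9% ± 1.24 in MYCN+/SNRPD3- #1 (0.19 ± 0.07 log2 odds with knockdown, adjusted p = 0.493). In HNRNPA2B1 the intron that skips the B1 exon held 77.1% ± 1.17 in wildtype and 80.6% ± 1.71 in MYCN-/SNRPD3- #1 (0.28 ± 0.11 log2 odds with knockdown, adjusted p = 0.532). In HNRNPM the intron that skips exon 13 held 10.6% ± 1.53 in wildtype and 12.8% ± 1.13 in MYCN-/SNRPD3- #2 (0.26 ± 0.12 log2 odds with knockdown, adjusted p = 0.633). The intron of HNRNPA1 that skips exon 8 held 81.5% ± 0.607 in wildtype and differed by 0.14 ± 0.06 log2 odds with MYCN (adjusted p = 0.369), and the intron of HNRNPDL that skips its NMD exon held 90.0% ± 1.64 and differed by 0.15 ± 0.20 log2 odds with knockdown (adjusted p = 0.96).

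The knockdown effect was also measured separately in MYCN- and MYCN+ cells, which share no library. Over 82 hnRNP introns, leaving out the HNRNPA2B1 cluster of repeated values, the log2 odds changes in both states correlated with Pearson's r = 0.923, and 75 introns (91.5%) had the same sign. Over all 152722 tested introns r was 0.046 and 55% had the same sign. No cluster with repeated values was left out of that larger set, so the sets were not filtered alike. The change was the larger one with MYCN expressed in 61 of the 82 introns (74.4%, against 54.2% of all introns), and the median size was 0.122 log2 odds with MYCN expressed and 0.0842 with MYCN repressed. In all 10 cassette exons lower after knockdown, replicate 3 was the lowest library of both MYCN+/SNRPD3- groups. Whether the larger size with MYCN expressed rests on those libraries was not tested. With the HNRNPA2B1 cluster included, r was -0.689 over 85 introns and 89.4% had the same sign, so the coefficient rests on its being left out. The correlation is a description across introns, of which those in one cluster mirror each other, and the spread of an intron between replicates, smaller in the hnRNP genes, was not separated from it. No interaction was called for any hnRNP intron.

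**Figure D5:**
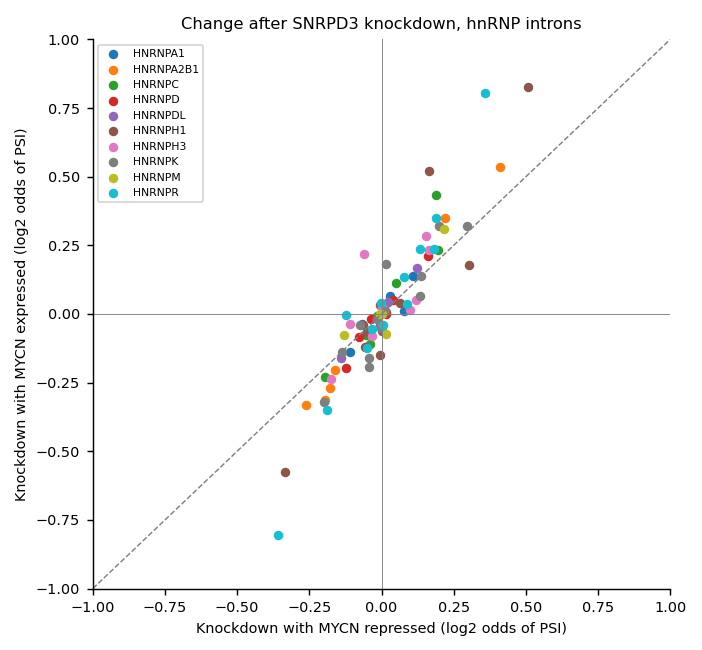
Change in log2 odds of PSI after SNRPD3 knockdown with MYCN repressed (x axis) and with MYCN expressed (y axis) for 82 hnRNP introns, coloured by gene, with the line of equal change dashed. Most points lie in the lower left and upper right quadrants, and in 61 of 82 introns the change was larger with MYCN expressed; the outermost HNRNPR pair, with an SE of 0.81 log2 odds in each state, had an adjusted limma p of 0.914 for knockdown over both states.

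The share of hnRNP PSI on introns found only in NMD transcripts was small. Without the HNRNPA2B1 cluster of repeated values it was 0.794% ± 0.0697 (SD, n = 3) in wildtype, 0.735% ± 0.0766 and 0.783% ± 0.0483 in the MYCN-/SNRPD3- groups, 0.698% ± 0.134 in MYCN+/SNRPD3+, and 0.625% ± 0.0669 and 0.644% ± 0.0586 in the MYCN+/SNRPD3- groups. With that cluster it was 3.17% to 3.75% in the group means. The share on unannotated introns, without the same cluster, lay between 0.33% ± 0.0858 in wildtype and 0.395% ± 0.0538 in MYCN-/SNRPD3- #1, a range within the spread between replicates.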

How the data were processed

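RNA was sequenced with a stranded poly(A) protocol in 18 libraries. The authors aligned reads to hg38 with STAR 2.5.0a, handled alignments with SAMtools 1.3.1 and ran leafcutter with GENCODE v28. In the file the authors deposited, PSI is a fraction: the reads of an intron over those of its cluster, per library. It is printed here as percent. No value is exactly 0 or 1, and how that arose is not given in the sources used here. Deposited tables of the authors' comparisons were not used. All columns were matched to a library by its label (0 unmatched).

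Introns were placed on GENCODE v44, and exons numbered along the Ensembl canonical transcript. The log2 odds, log2((PSI + 0.01)/(1 - PSI + 0.01)), of introns with mean PSI from 0.01 to 0.99 were fitted with limma 3.58.1 (R 4.3.3) on all 6 groups. Exon inclusion was tested in Python 3.11.15 with two-sided exact permutations, among 7056 arrangements for knockdown and 8000 for MYCN, with smallest possible p-values of 0.000142 and 0.00025. The fit was tested on simulated data.

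The members, gene lists and tests were chosen with earlier results of these data known. Introns were named when called in any comparison or, per gene with mean PSI from 5% to 95%, for the 2 smallest p-values for knockdown and the smallest for MYCN. Annotated cassette exons and known alternative exons were named as well, and the HNRNPA2B1 and HNRNPH1 introns that share a cluster with called introns were added after their values were seen. Alternatives included other offsets and filters, untransformed PSI, eBayes options, a stricter threshold, a replicate block and leaving out each library.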

Additional observations from a re-analysis of the deposited data

How the results depend on the processing

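The 5 comparisons without a called hnRNP intron also had 0 calls under every alternative that was run. For MYCN over all siRNAs, the 3 calls became 1 at an adjusted p under 0.01, 1 with a mean PSI from 0.05 to 0.95, 1 with untransformed PSI and 1 with the trend and robust options of eBayes, and 2 to 3 when 1 library was left out. The intron from the HNRNPA2B1 NMD exon to the distal acceptor also lost its call with an offset of 0.05 (adjusted p = 0.0591, limma) and with no PSI filter (adjusted p = 0.0534, limma). For MYCN+/SNRPD3- against wildtype, the 2 calls became 4 with an offset of 0.001, 1 with an offset of 0.05, 1 with untransformed PSI, 0 at an adjusted p under 0.01, 0 with no PSI filter, 0 with the eBayes options, 0 with only the groups compared in the fit, and 0 to 2 when 1 library was left out. The mean PSI filter from 0.05 to 0.95 left both introns around the HNRNPA2B1 NMD exon out of the test. The causes of the other changes were not tested. With a replicate block the calls were 5 for MYCN+/SNRPD3- against wildtype and 4 for MYCN over all siRNAs, and no other count changed. The labels give no shared source for a replicate number. Deviations of same-numbered libraries from their group means correlated at 0.00615 on average over all introns (-0.0509 to 0.0638), and over the hnRNP introns at 0.138 (-0.677 to 0.894), against -0.0624 for different numbers (-0.89 to 0.907). Since not every pair was above 0.1, the numbers were not taken to pair the libraries. That rule cannot exclude pairing in a part of the introns. Single introns did follow the number. Replicate 2 was the highest library of every group for both introns around the HNRNPA2B1 NMD exon. It was the lowest of every group for the HNRNPC intron that keeps the C2 segment. The main fit and the permutation tests did not use the replicate number, and its part in single introns was not tested. The fit with only the groups compared could not be made for the comparisons that use all 6 groups. Among cassette exons, the number lower after knockdown ranged from 7 to 12 when 1 library was left out, and the 1 higher exon became 0 with the upstream flanking intron alone, 0 without replicate 3 of both MYCN+/SNRPD3- groups, and 0 to 1 when 1 library was left out. The 3 exons higher with MYCN became 3 to 5 when 1 library was left out. The HNRNPDL exon between exons 7 and 8 went from -0.517 to 0.1001 points without MYCN+/SNRPD3+ replicate 3 (exact permutation p = 0.895), within a range of -0.927 to 0.1001 when 1 library was left out. Read depth behind each PSI is unknown, which limits what small differences can show.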
